A study of Mus musculus with 2 samples.

Results

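Intergenic peaks at medium distance from genes were examined in the open chromatin of mouse ileal enteroids. A peak was included when its midpoint lay outside every annotated gene of the mm9 assembly and 10 to 100 kb from the nearest start site of a protein-coding transcript, on either side. There were 20880 such peaks among the 90445 of the control list (23.1%) and 16308 among the 71282 of the Taf4-inactivated list (22.9%). Over both lists they made up 37188 of 161727 peaks, or 23.0%.

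The assay was ATAC-seq, which reads where a transposase can reach and cut the DNA of nuclei. The enteroids, epithelial cultures that form crypt-like buds, were grown from ileal crypts of 4-month-old C57Bl6/129sv mice. Control enteroids were Taf4lox/lox without Cre, so that their floxed Taf4 alleles, named WT in the labels, stayed intact. Taf4-inactivated enteroids, named KO in the labels, were Taf4lox/lox::VilCreERT2, in which a tamoxifen-dependent Cre driven by the villin promoter removes the floxed allele in epithelial cells. Both were treated with 1 µM 4-hydroxytamoxifen for 3 days. There was 1 library for each genotype and no replicate, so the effect of Taf4 loss cannot be told apart from any other difference between these 2 libraries or cultures. All intervals are 95% intervals that cover counting error only, and peaks of one library are not replicates of a genotype.

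Taf4 is a subunit of TFIID, the general transcription factor that helps RNA polymerase II start at promoters. Open chromatin far from promoters often marks enhancers, short DNA elements where sequence-specific factors displace nucleosomes and act on promoters by looping, and it can also mark insulators bound by CTCF. In the intestinal epithelium, factors such as Cdx2, Hnf4a and the Gata family are known to bind many distal elements. The gene nearest to such an element is often, but not always, its target, and the peak lists do not show which gene a peak acts on.

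The sequences shown here are the central 300 bp of peaks that the results below turn on. The set holds the strongest shared peak in each list, the shared peak near Axin2, the strongest peak listed in control alone, 2 of the 3 peaks of highest fold listed in the Taf4-inactivated library alone, taken because they hold an AP-1 match while the other one, near Mta3, holds none, and 1 of the 5 peaks found near Areg in that library alone, this last chosen after its values were seen. They are given 5′ to 3′ on the plus strand of mm9. Capitals mark matches on either strand. The pattern TGANTCA, in which N is any base, stands for the AP-1 site, where dimers of Fos and Jun proteins bind. It is looser than the site itself, since TGAATCA counts as a match just as TGACTCA and TGAGTCA do. The pattern AGATAA stands for the site of GATA factors, which direct regional identity in the gut. The pattern ACATTCC stands for the site of TEAD factors, the partners of the Hippo pathway effector Yap. A match is a description of the letters and does not show that a factor was bound.
Gm5614, chr9:35112844-35113143: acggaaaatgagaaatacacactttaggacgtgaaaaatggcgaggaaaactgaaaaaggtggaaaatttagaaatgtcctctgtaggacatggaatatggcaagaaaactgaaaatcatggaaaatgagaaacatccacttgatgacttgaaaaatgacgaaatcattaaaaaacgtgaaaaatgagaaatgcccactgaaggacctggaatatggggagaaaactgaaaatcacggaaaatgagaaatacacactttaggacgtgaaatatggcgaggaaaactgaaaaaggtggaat
Axin2, chr11:108872878-108873177: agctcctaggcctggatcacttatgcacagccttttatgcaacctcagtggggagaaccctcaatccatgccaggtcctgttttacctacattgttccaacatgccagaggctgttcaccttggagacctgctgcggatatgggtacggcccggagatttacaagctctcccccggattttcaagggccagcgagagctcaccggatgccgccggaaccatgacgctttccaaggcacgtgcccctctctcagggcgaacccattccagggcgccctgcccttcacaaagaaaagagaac
Pi15, chr1:17496808-17497107: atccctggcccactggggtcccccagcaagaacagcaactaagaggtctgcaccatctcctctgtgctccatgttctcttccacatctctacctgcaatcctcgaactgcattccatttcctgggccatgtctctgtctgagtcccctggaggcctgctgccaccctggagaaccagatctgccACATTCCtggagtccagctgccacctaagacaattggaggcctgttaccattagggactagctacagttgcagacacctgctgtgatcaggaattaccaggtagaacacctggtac
Slc7a11, chr3:50260541-50260840: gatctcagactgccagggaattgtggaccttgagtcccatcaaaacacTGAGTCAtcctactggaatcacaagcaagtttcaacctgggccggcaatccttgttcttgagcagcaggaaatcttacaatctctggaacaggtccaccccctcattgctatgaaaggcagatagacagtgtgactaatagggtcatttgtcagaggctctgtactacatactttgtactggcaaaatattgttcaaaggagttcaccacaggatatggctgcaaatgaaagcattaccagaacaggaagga
Cacna2d1, chr5:15352659-15352958: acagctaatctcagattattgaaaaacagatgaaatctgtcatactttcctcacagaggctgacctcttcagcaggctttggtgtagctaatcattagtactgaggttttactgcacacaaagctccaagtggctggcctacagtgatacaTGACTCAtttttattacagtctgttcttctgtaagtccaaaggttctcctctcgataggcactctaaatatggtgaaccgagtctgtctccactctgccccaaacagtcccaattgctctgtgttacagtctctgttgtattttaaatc
Areg, chr5:91552465-91552764: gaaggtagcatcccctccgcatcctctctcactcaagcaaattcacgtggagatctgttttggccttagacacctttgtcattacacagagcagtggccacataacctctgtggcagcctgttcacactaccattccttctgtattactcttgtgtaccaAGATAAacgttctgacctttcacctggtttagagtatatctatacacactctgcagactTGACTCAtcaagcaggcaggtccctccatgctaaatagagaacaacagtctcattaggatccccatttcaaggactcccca
The Gm5614 window reads as copies of the mouse major satellite, a pericentromeric repeat. The windows near Slc7a11, Cacna2d1 and Areg each held 1 AP-1 match, the last one beside a GATA match. The Pi15 window held a TEAD match, and neither the Gm5614 nor the Axin2 window held any match to the 6 patterns searched.

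The libraries differed in depth and in peak strength. The background under the peaks, solved from the deposited fold and p, was 12.1 reads in control and 7.35 in the Taf4-inactivated library, 60.5% of the control value. The median fold of the medium-distance peaks over their own library's background was 2.03 in control and 2.42 after inactivation, values that are not on a common scale. Folds were therefore compared only as percentiles within a list. In both lists all 7 epithelial marker genes, among them Epcam, Cdh1, Vil1 and Cdx2, held a peak at a start site. Of markers of other cells a crypt preparation could hold, start site peaks were found at 2 of 5 immune genes in control and 1 of 5 after inactivation, at 4 of 5 mesenchymal genes in both, at 2 and 1 of 3 endothelial genes, and at 4 and 2 of 4 muscle and nerve genes. The pan-leukocyte gene Ptprc and the T cell gene Cd3e had none in either list. A start site peak is no measure of expression, and the part of these markers and of depth in the results was not tested. Taf4a, the targeted gene, had a start site peak at percentile 74.7 of fold in control and 58.7 after inactivation, which does not report on the floxed part, and no medium-distance peak was nearest to it.

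Peak density at medium distance lay between that near start sites and that of remote intergenic sequence. The sequence that met the rule came to 574 Mb, 22.4% of the assembly, and held 36.4 control and 28.4 Taf4-inactivated peaks per Mb. Sequence inside genes at the same distance held 42.1 and 31.0 peaks per Mb, and intergenic sequence more than 100 kb from a start 11.9 and 8.34. Within 1 kb of a start site there were 251 and 238. Shared medium-distance peaks numbered 15.4 per Mb in control and 15.5 after inactivation, close to equal by definition because overlap is mutual. The lists could therefore differ mainly in the density of the remaining peaks. The median distance to the nearest start was 33.1 kb in control and 32.0 kb after inactivation, and 60.4% and 62.0% of the peaks lay upstream of that start. The rule leaves out gene bodies, which lie downstream of starts, so it favours upstream peaks. The upstream share of the eligible sequence was not computed.

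Fewer than 1 in 2 medium-distance control peaks overlapped a peak of the Taf4-inactivated list. A peak was called shared when at least 1 bp overlapped, and unpartnered otherwise. In control, 8843 peaks were shared (42.4%, exact Clopper-Pearson interval 41.7 to 43.0) and 12037 were unpartnered (57.6%), beside 52.7% unpartnered among all control peaks. In the Taf4-inactivated list, 8875 were shared (54.4%, 53.7 to 55.2) and 7433 were unpartnered (45.6%), beside 39.8% among all its peaks. The shared percentages differed by -12.1 points, control minus inactivated (Newcombe interval -13.1 to -11.1). Because overlap is mutual, the numbers of shared peaks were almost equal by definition, and the percentages therefore followed the lengths of the lists. With 40000 peaks of highest fold kept in each list, an alternative added after the data were seen, the difference was -0.975 points. A floor of 2 on −log10 q in both lists turned the difference to 1.82 points, and a floor of 5 to 52.1 points, so its direction depended on the threshold.

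Sharing was compared with that of other peaks of the same list. The shared percentage of medium-distance peaks differed from that of all other peaks by -6.42 points in control (interval -7.18 to -5.65) and by -7.55 points after inactivation (-8.42 to -6.69). Against peaks within 1 kb of a start, of which 87.7% and 92.8% were shared, the differences were -45.4 and -38.4 points. Medium-distance peaks were shared more often than peaks inside genes at the same distance, by 4.91 points in control (4.00 to 5.81) and 3.38 points after inactivation (2.31 to 4.44). They were also shared more often than intergenic peaks beyond 100 kb, by 11.3 points in control (10.1 to 12.5) and 9.87 after inactivation (8.43 to 11.3). The difference from intergenic peaks at 1 to 10 kb was -4.48 points in control (-5.91 to -3.04), whereas after inactivation it was -0.617 points and its interval held 0 (-2.18 to 0.951).

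Sharing varied with the strength of a peak and, within quartiles of strength, with position. All peaks of a list were split into quartiles of −log10 q, the peak caller's measure of strength. Peaks within a quartile were matched neither in strength nor in width, and the highest control quartile ran from 3.00 to 132. In the lowest quartile, 22.0% of medium-distance peaks (20.9 to 23.1) and 21.3% of all other control peaks were shared, but 15.7% of intergenic peaks beyond 100 kb were (14.3 to 17.2). In the next to highest quartile the percentages were 46.3 for medium-distance and 47.1 for all other peaks, with intervals that overlapped, beside 41.5 inside genes at the same distance and 32.6 beyond 100 kb. Against all other peaks pooled, the control intervals parted in the highest quartile alone, with 80.4% of medium-distance peaks shared (79.1 to 81.6) against 89.95% of the others (89.5 to 90.4). In the Taf4-inactivated list the lowest quartile gave 38.7% and 39.8%, with intervals that overlapped. There the intervals parted in each quartile above it, at 47.6% and 50.3%, 58.4% and 61.6%, and 85.4% and 92.0%. By width, medium-distance control peaks of the narrowest quartile were shared in 27.0% and the others in 25.8%, and those of the widest quartile in 64.4% and 75.2%.

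**Figure D1:**
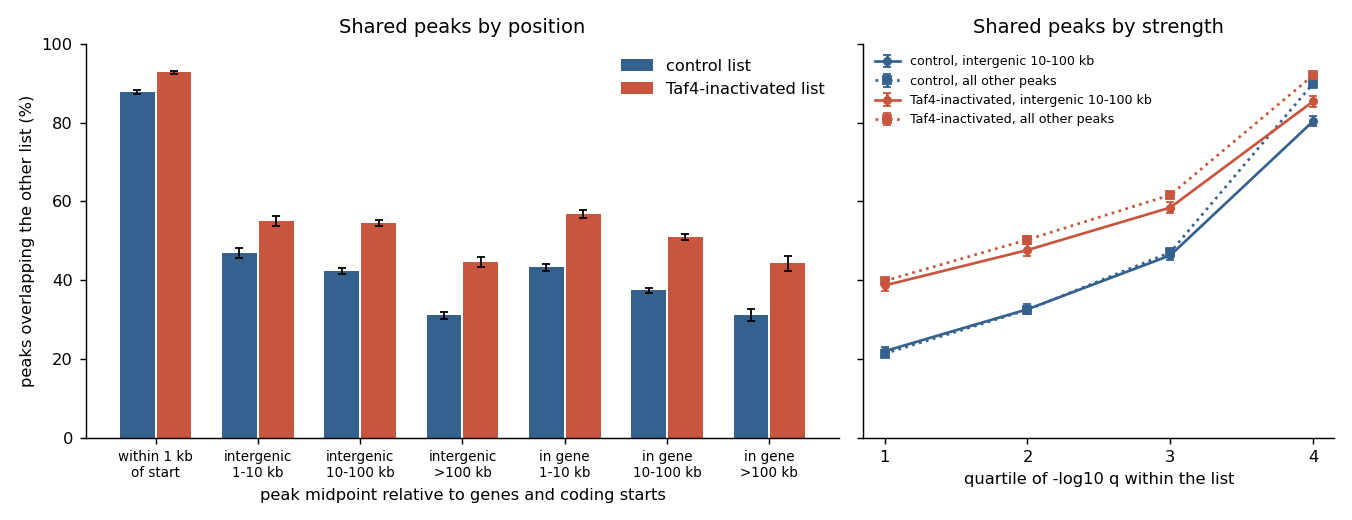
Percentage of peaks overlapping the other list by at least 1 bp, by position of the midpoint (left, bars) and by quartile of −log10 q within the list (right, points), in the control (blue) and Taf4-inactivated (red) list, with exact 95% intervals that cover counting error only. Intergenic peaks 10 to 100 kb from a coding start were shared in 42.4% and 54.4%, between start site peaks and those beyond 100 kb. Intervals of medium-distance peaks (solid lines) and other peaks (dotted) parted in the top quartile alone in control, and in all quartiles but the lowest after inactivation.

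Within the 10 to 100 kb band, sharing became less frequent with distance. In control, 46.7% of the 5526 peaks at 10 to 20 kb were shared (45.3 to 48.0), 42.9% at 20 to 40 kb, 41.2% at 40 to 60 kb, 37.7% at 60 to 80 kb and 36.7% of the 1922 peaks at 80 to 100 kb (34.6 to 38.9). In the Taf4-inactivated list the percentages were 56.8, 55.7, 53.3, 50.6 and 49.7 in the same order. The fold percentile of the control peaks hardly moved over these bins, from a median of 49.87 in the nearest to 49.98 in the farthest, while that of the Taf4-inactivated peaks went from 50.7 to 44.5. Just outside and inside the limits, the control percentages were 47.3 at 9 to 10 kb and 49.4 at 10 to 11 kb, and 36.9 at 95 to 100 kb and 33.5 in the 5 kb beyond. The corresponding values after inactivation were 55.1, 57.6, 46.4 and 42.1. Peaks upstream of the nearest start were shared in 43.3% of cases in control and those downstream in 40.9%, against 54.2% and 54.7% after inactivation. The percentage shared ranged over chromosomes from 36.5 on X to 45.7 on chromosome 13 in control, and from 49.8 on chromosome 3 to 59.9 on chromosome 4 after inactivation.

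Strong medium-distance peaks, those in the top 10% of their list by fold, were mostly shared. In control there were 1151, of which 55 were unpartnered, and strong control peaks of any position were unpartnered in 2.38% of cases. In the Taf4-inactivated list there were 1005, of which 113 were unpartnered, against 5.65% of all its strong peaks. Medium-distance strong peaks were thus shared in 95.2% of cases in control (93.8 to 96.4) and in 88.8% after inactivation. Strong peaks were scarcer at medium distance than at start sites, at 5.51% of medium-distance and 38.1% of start site peaks in control, and 6.16% and 29.1% after inactivation.

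Control peaks were wider. The median width of medium-distance peaks was 520 bp in control (order-statistic interval 512 to 528) and 462 bp after inactivation (455 to 470), a difference of 58 bp (46.7 to 68.6). Peak width is set by the peak caller and moves with depth, which also differed between the libraries, and the part of depth was not tested. The middle 50% of peaks spanned 308 to 882 bp in control and 294 to 776 bp after inactivation, and the narrowest measured 200 bp in both, the length to which reads were extended. Peaks of at least 1000 bp made up 19.2% in control and 14.0% after inactivation. The widest control peak measured 4285 bp (chr9:46158019-46162303, upstream of 4931429L15Rik) and the widest Taf4-inactivated peak 3962 bp (chr11:94019747-94023708, 51.0 kb upstream of Tob1, an antiproliferative gene). Both were shared although their folds were unremarkable, at percentiles 36.04 and 61.5. Start site peaks had medians of 1009 and 948 bp, peaks inside genes at the same distance 523 and 450 bp, and intergenic peaks beyond 100 kb 446.5 and 414 bp.

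Shared peaks were wider than unpartnered ones in both lists. In control the medians were 661 bp (647 to 677) for shared and 437 bp (429 to 445) for unpartnered peaks. After inactivation they were 562 bp (553 to 573) and 356 bp (350 to 362). A wide peak has more bases with which to meet another, so width and sharing by 1 bp are not independent. Shared peaks also ranked higher, with a median fold percentile of 63.4 against 42.0 in control and 56.2 against 39.1 after inactivation.

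**Figure D2:**
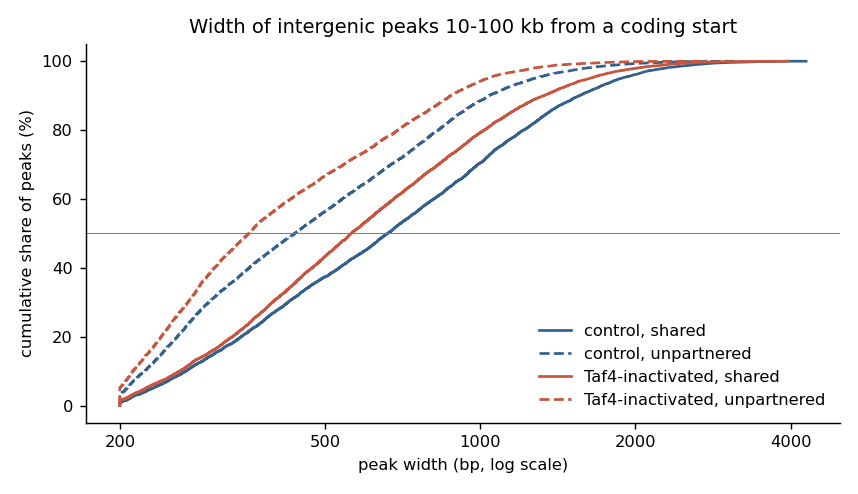
Cumulative percentage of medium-distance intergenic peaks by width in bp (log scale), for shared (solid) and unpartnered (dashed) peaks of the control (blue) and Taf4-inactivated (red) list; the grey line marks the medians. The median moves from 356 bp for unpartnered Taf4-inactivated peaks to 661 bp for shared control peaks.

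The partner of a shared medium-distance peak was nearly always at medium distance too, in 99.0% of cases in both lists. When each peak was matched with the one it overlapped best, 8686 pairs had both peaks at medium distance. Their fold percentiles had a Spearman correlation of 0.592 across pairs, against 0.726 over all 42491 pairs, as a description of peaks that share their sequence. The control peak was wider in 54.9% of pairs (53.8 to 55.9). Among the 4978 pairs in which at least 50% of both peaks overlapped, the control peak was wider in 49.5%, with an interval (48.1 to 50.9) on both sides of an even split. Requiring that overlap itself holds the widths of a pair close together, so this split says little of width. Over all 8686 pairs the median widths were 663 bp in control and 564 bp after inactivation.

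Large rank shifts were uncommon. A shift of at least 50 percentile points toward the Taf4-inactivated list was seen in 199 pairs (2.29%, against 2.22% of all pairs). A shift of that size toward control was seen in 346 pairs (3.98%, against 3.20% of all pairs). Among pairs overlapping by 50% of both peaks, the largest shift up was 18.5 kb downstream of a start of Slc25a10, a mitochondrial dicarboxylate carrier gene, from percentile 7.13 in control to 82.4 after inactivation. The next were 12.3 kb upstream of Irf1, an interferon-induced transcription factor gene (3.46 to 78.6), and 44.1 kb upstream of Il17b, a cytokine gene (4.07 to 79.2). All 3 were among the weakest control peaks and stood between percentiles 78.6 and 82.4 after inactivation. The largest shift down lay 10.1 kb downstream of Otp, a homeobox gene of the hypothalamus, from percentile 94.9 to 13.1. It was followed by pairs near Adra2a, an adrenergic receptor gene (83.1 to 2.36), and Thnsl2 (91.5 to 13.7).

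The peaks of highest fold included repeat sequence. The highest in both lists was the satellite stretch upstream of Gm5614 printed above (chr9:35112727-35113261), with a fold of 9.41 in control and 11.2 after inactivation. A search for other places at 90% identity over 90% of the peak found none for it, although a match of 394 bp lay elsewhere in the assembly. The second control peak, upstream of Gm9880 (fold 6.28), had 1 other copy in the assembly at 93.1% identity. The control peak after it (fold 5.23) also had no other place under that search, with 77 bp as its longest match elsewhere, and lay 88.5 kb downstream of Axin2, a Wnt target that encodes a negative regulator of Wnt signalling. Its partner in the Taf4-inactivated list had a fold of 7.55, and both stood at the very top of their lists. In the Taf4-inactivated list the next peaks lay near Pak3 (fold 7.79) and Frg1 (fold 7.60), the latter with 1 other copy at 92.5% identity. Reads mapping to more than 1 place were not kept, and what this does to signal in repeats was not tested. No medium-distance peak matched the mitochondrial genome over 100 bp or more.

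Strong unpartnered peaks were fewer in control, and the highest of them ranked lower in their list than those after inactivation did in theirs. Strong peaks of any position were also less often unpartnered in control, 215 of 9045 against 403 of 7129 after inactivation. The 3 highest medium-distance ones in control lay 95.02 kb upstream of Pi15, a peptidase inhibitor gene (fold 3.34, percentile 98.4), 21.7 kb upstream of 3110052M02Rik (3.10, percentile 96.9) and 66.9 kb downstream of Prl2c2, a prolactin family gene (3.06, percentile 96.6). The Prl2c2 peak matched 123 other places at 90% identity or more over 90% of its length, whereas the Pi15 peak matched none. After inactivation the 3 highest lay 13.2 kb upstream of Slc7a11, the cystine and glutamate exchanger gene (fold 5.20, percentile 99.3), 33.3 kb upstream of Mta3, which encodes a subunit of the NuRD chromatin remodelling complex (5.07, percentile 99.1), and 87.7 kb upstream of Cacna2d1, a calcium channel subunit gene (4.82, percentile 98.4). None of these 3 had another copy. The Slc7a11 and Cacna2d1 windows were the ones with AP-1 matches shown above, and the Mta3 window had none.

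AP-1 matches were more frequent in the Taf4-inactivated than in the control list, and among unpartnered peaks the difference was larger. Windows of 300 bp centred on the midpoint were searched on both strands for 6 patterns, and for each pattern written backwards as a control of the same base composition. In control, 10.8% of medium-distance windows held TGANTCA (10.3 to 11.2), against 6.94% for its reversed form ACTNAGT and 9.29% over all control peaks. After inactivation, 14.7% held it (14.2 to 15.3), against 7.37% reversed and 12.0% over all peaks of that list. Windows 2 kb to either side of medium-distance peaks held it in 8.52% and 8.38%. Shared peaks, which are largely the same places in both lists, gave 13.7% and 14.6%. Unpartnered peaks gave 8.62% in control (8.13 to 9.14) and 14.9% after inactivation (14.1 to 15.7). Among strong peaks the percentages were 19.0 in control and 27.2 after inactivation, and among strong unpartnered ones 9.09 (5 of 55, interval 3.02 to 20.0) and 36.3 (41 of 113, 27.4 to 45.9). The reversed pattern was found in 7.27% and 11.5% of those last windows. Shares over all unpartnered or all strong peaks of a list were not computed, so these contrasts are not shown to be particular to medium distance. The longer control list also reaches down to weaker peaks, and its part in the AP-1 shares was not tested. The patterns were counted separately, and matches to different ones may overlap.

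**Figure D3:**
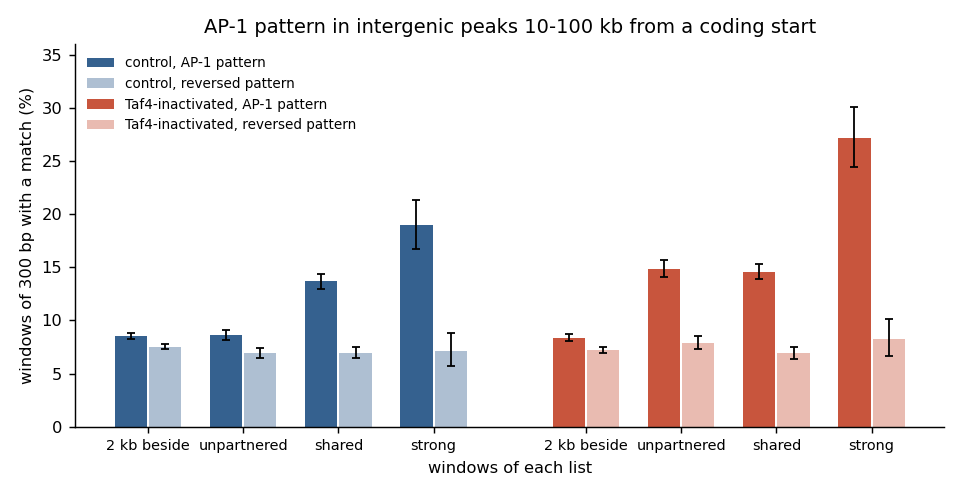
Percentage of 300 bp windows with a match to the AP-1 pattern (full colour) or its reversed form (pale) in medium-distance intergenic peaks of the control (blue) and Taf4-inactivated (red) list and in windows 2 kb beside them, with exact 95% intervals for counting error. Unpartnered peaks held the pattern in 8.62% in control and 14.9% after inactivation, and strong peaks in 19.0% and 27.2%.

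The other patterns were also found in a higher percentage of windows after inactivation than in control. For these patterns the percentages over all peaks of each list are not given, so the differences are not shown to be particular to medium distance. CTCF matches, counted with a pattern for the insulator protein's core site, were found in 1.20% of medium-distance windows in control and 2.86% after inactivation, against 0.270% and 0.237% beside them. In unpartnered peaks they were found in 0.548% in control (0.424 to 0.697) and 2.74% after inactivation (2.39 to 3.14). CAAAGTCCA, a site of the intestinal nuclear receptors Hnf4a and Hnf4g, was found in 0.853% and 1.76% of windows, and in 0.390% and 1.86% of unpartnered ones. AGATAA was found in 11.6% and 15.3%, no more than in the more A- and T-rich windows beside the peaks (15.4% and 15.5%) but above its reversed form (9.27% and 10.3%). CCATAAA, a site of Cdx factors, was found in 3.20% and 3.97% of windows and reversed in 2.70% and 2.55%. ACATTCC was found in 4.33% and 4.70% and reversed in 3.42% and 3.20%. In unpartnered peaks the percentages were 10.3 in control and 16.6 after inactivation for AGATAA, 2.81 and 3.98 for CCATAAA, and 3.93 and 4.94 for ACATTCC. For each of the 6 patterns the percentage of unpartnered windows with a match was lower in control. The control list is the longer one and reaches down to weaker peaks, and whether this sets the motif shares was not tested. The median G and C content was 52% in control and 51% after inactivation, between 45% in the windows beside them and 64% at start sites.

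To count per gene, overlapping medium-distance peaks of either list were merged, which gave 28339 regions. Of these, 8869 were shared (31.3%), 12037 came from the control list alone (42.5%) and 7433 from the Taf4-inactivated list alone (26.2%). Of 22238 protein-coding genes, 8418 (37.9%) were nearest to at least 1 region, with a median of 2 for those genes. The 486 genes with 10 or more regions accounted for 21.7% of all regions. Regions lay close together, with a median gap of 4.59 kb to the nearest other region and 53.2% within 5 kb. Genes with start sites open in control and after inactivation alike had 6.37 regions per 100 kb of sequence that met the rule, and genes whose start sites held no peak in either list had 2.60. The shared percentage was 32.2 (31.6 to 32.8) around the former and 28.2 (27.0 to 29.5) around the latter.

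The gene with most regions was C130026L21Rik (ENSMUSG00000052848.3, chr5:112010442-112016965), with 29, of which 4 were shared, 19 were in the control list alone and 6 in the Taf4-inactivated list alone. Sik1, which encodes a salt-inducible kinase (ENSMUSG00000024042.6, chr17:31981193-31992737), followed with 27 regions, 10 of them shared. Irx3, an Iroquois homeobox gene (chr8:94322428-94325553), had 25, and only 2 were shared. Ets2, an ETS family transcription factor gene, had 20 regions, and like Sik1 had 10 shared.

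The other genes named here had 19 to 22 regions. Dlk1, an imprinted gene related to Notch ligands, Nptx2, a neuronal pentraxin gene, and Pja1, a ubiquitin ligase gene, had 22 each. Ctdp1, whose product removes phosphate from the tail of RNA polymerase II, Prex1, a Rac activator gene, and Trib1, a pseudokinase gene, had 21 each. Bod1, needed for chromosome biorientation, Gpr6, a G protein-coupled receptor gene, and Slc34a2, the phosphate transporter gene of the intestinal brush border, had 20 each. Hs6st1, a heparan sulfate sulfotransferase gene, had 19 regions with 1 shared, and was tied with Klf13 and Tcfap2c. Among the 15, C130026L21Rik alone had no start site peak in either list. Genes with more eligible sequence had more regions (Spearman 0.536 across genes, which are not independent), and the 15 had 110 to 180 kb of it. Per 100 kb, their densities ran from 11.1 at Bod1 to 19.2 at Prex1, against 4.94 over all eligible sequence. The count at Prex1 rested on which starts were used, and with gene 5′ ends alone it was 5 regions rather than 21. The densest genes with 10 or more regions were Tle3, a corepressor gene (24.5 per 100 kb), Mb, Htr1d, Scarb1 and Gm6772.

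**Figure D4:**
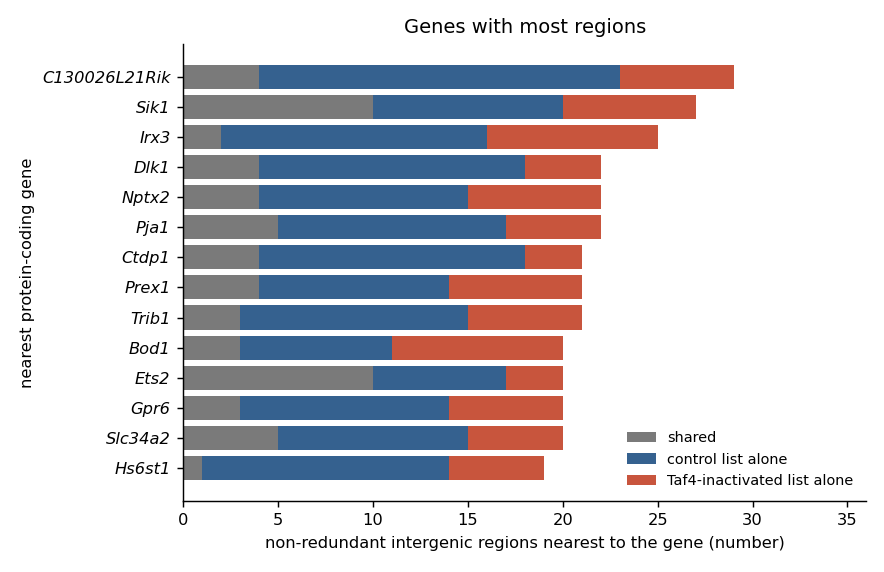
Number of merged medium-distance regions nearest to each of 14 of the 15 protein-coding genes with most of them, split into regions shared by both lists (grey), from the control list alone (blue) and from the Taf4-inactivated list alone (red). C130026L21Rik leads with 29 regions, of which 4 were shared, and Sik1 and Ets2 hold 10 shared regions each.

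The order rested largely on weak peaks. Under a floor of 2 on −log10 q in both lists, C130026L21Rik kept 7 regions and Irx3 kept 6, while Ets2 led with 15 and Pja1 had 13. Under a floor of 5, C130026L21Rik and Irx3 had 0 and Ets2 had 2. Under these thresholds 3 and 1 of the 15 genes were still among the first 15.

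Some genes had regions mostly from 1 list. Since the control list gave 12037 unpartnered regions and the other 7433, an excess of control regions was the more frequent case, seen at 4160 genes against 2065 with the opposite. The largest excesses of control regions were at C130026L21Rik (19 against 6), Ctdp1 (14 against 3), Gjb5, a connexin gene (11 against 0), Rap1b, a small GTPase gene (11 against 0), and Dlk1 (14 against 4), the last level with 2 other genes. In the other direction 8 genes had an excess of 5 regions from the Taf4-inactivated list, of which the first by name were 1700129C05Rik, Areg, Atp1b1, the beta subunit gene of the sodium and potassium pump, and Fut8, a fucosyltransferase gene. Atp1b1 had 18 regions, 9 of them shared and 7 from the Taf4-inactivated list alone.

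The excesses differed in the strength of the peaks behind them. Areg (ENSMUSG00000029378.4, chr5:91568641-91577458) encodes amphiregulin, a growth factor that binds the EGF receptor. It was nearest to 8 regions, 3 shared and 5 from the Taf4-inactivated list alone. The 5 unpartnered peaks stood at percentiles 83.1 to 93.8 of fold, at 16.0 kb upstream and at 36.9, 61.0, 65.2 and 80.8 kb downstream of a start. The shared region 28.9 kb upstream (chr5:91539059-91540346) stood at percentile 72.6 in control and 99.7 after inactivation. The shared regions 17.5 and 23.4 kb downstream went from 73.1 to 86.4 and from 93.3 to 99.7. Every region near Areg was therefore either listed after inactivation alone or ranked higher there, and none was listed in control alone. Of the 8 windows, the one 28.9 kb upstream matched the AP-1 pattern with TGAATCA, and the one 16.0 kb upstream, printed above, with TGACTCA. Around Gjb5, by contrast, the 11 unpartnered control peaks stood at percentiles 10.2 to 72.9, and the 3 shared regions at 6.35 to 51.8 in control and 3.75 to 19.1 after inactivation. These genes were named for their excess, so the counts are a description.

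**Figure D5:**
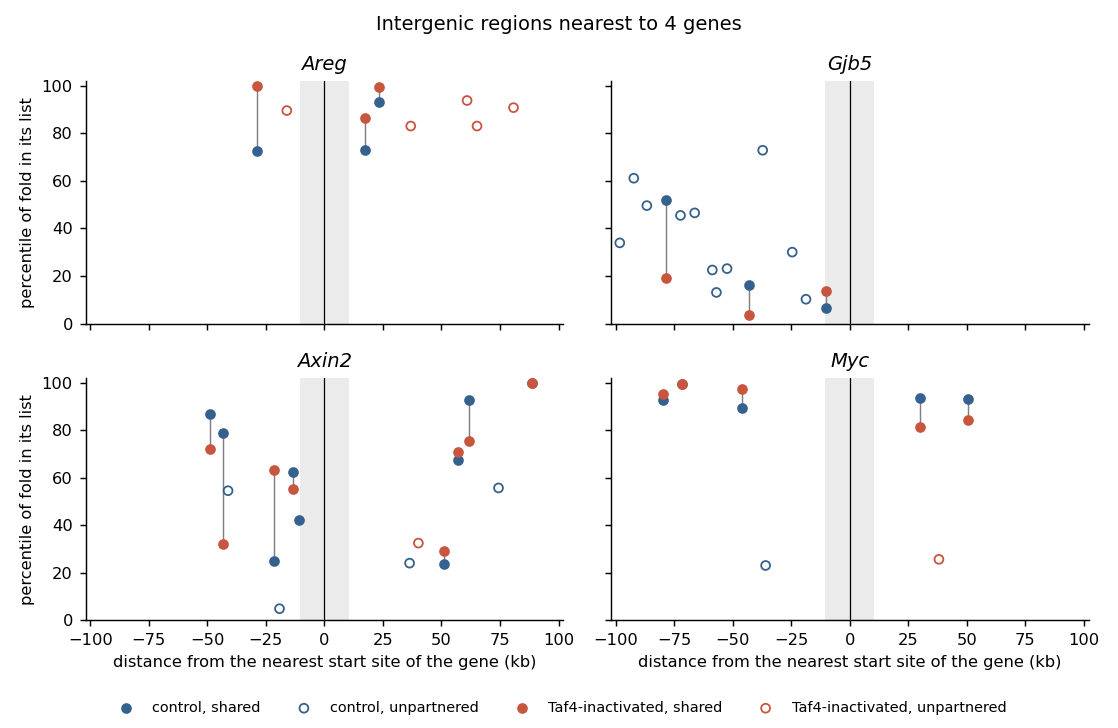
Percentile of fold within its list of each medium-distance region, by distance in kb from the nearest start site of the gene (upstream negative; the grey band within 10 kb is outside the rule), for Areg, Gjb5, Axin2 and Myc; filled points are shared regions, joined by a line where both peaks were at medium distance, and open points are unpartnered. Near Areg the unpartnered Taf4-inactivated peaks (red) stand at percentiles 83.1 to 93.8, whereas the unpartnered control peaks (blue) near Gjb5 stand at 10.2 to 72.9.

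All 6 gene lists had more medium-distance regions per 100 kb than the 4.94 over all eligible sequence. Over all genes, 42.5% of regions came from the control list alone and 26.2% from the Taf4-inactivated list alone. The counts of such regions given below are to be read beside these shares. Most genes of the intestinal and stem cell lists (19 of 20 and 16 of 16) had start site peaks in control and after inactivation. So did all 10 Polycomb genes. All protein-coding genes of that kind had 6.37 regions per 100 kb, and the Polycomb genes, at 5.93, lay below that. The 20 intestinal transcription factor genes had 96 regions, 8.52 per 100 kb, of which 35 were shared, 42 came from control alone and 19 from the Taf4-inactivated list alone. Gata6 had 14 and Gata4 had 12 regions, while Cdx1, Creb3l3 and Foxa3 had no eligible sequence. Klf4, a factor of goblet cell differentiation, had 12 regions, 8 shared and 4 in control alone. All 5 regions of Elf3, an epithelial ETS factor gene, were shared, at percentiles 53.8 to 96.6 in control and 52.1 to 92.9 after inactivation. Tcf7l2, the main Wnt effector of the crypt, had 9 regions, 7 of them in control alone. Of the 4 regions near Foxa2, which encodes a pioneer factor, all were in control alone. With counts this small, the split of a single gene between the lists is a description only.

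The 16 stem cell and Wnt genes had 84 regions, 7.18 per 100 kb, with 36 shared, 34 in control alone and 14 in the Taf4-inactivated list alone. Axin2 had 14 regions, 9 of them shared, and Fzd7, a Wnt receptor gene of stem cells, had 10, of which 5 were shared and 5 were in control alone. Lgr5, the marker of crypt base stem cells, had 4 regions, and its 1 shared region, 37.3 kb upstream, stood at percentile 89.9 in control and 89.7 after inactivation. Myc, a Wnt target and growth regulator, had 7 regions, and its 5 shared ones stood at percentiles 89.3 to 99.3 in control and 81.2 to 99.3 after inactivation. Near Olfm4, another stem cell marker, 2 of 3 regions were shared and 1 was in control alone. Among the regions of all genes, 42.5% were in control alone.

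The differentiation lists, like the stem cell and Polycomb lists, had fewer regions per 100 kb than the transcription factors had. The 15 absorptive genes had 40 regions, 7.48 per 100 kb, 14 of them shared, 11 in control alone and 15 in the Taf4-inactivated list alone. Apob, of lipoprotein assembly, had 10 regions, and Fabp6, the ileal bile acid binding protein gene, had 8, of which 4 were shared. Near Sis, the sucrase-isomaltase gene, 1 region was shared and 3 were in the Taf4-inactivated list alone, as were 3 of 5 near Slc10a2, the ileal bile acid transporter gene. Of the 15 secretory genes 14 were matched in the annotation, and they had 30 regions, 7.15 per 100 kb, with 11 shared, 9 in control alone and 10 in the Taf4-inactivated list alone. Chga, a hormone granule gene, had 6 regions, none shared, and Muc2, the main goblet cell mucin gene, had 2, both in the Taf4-inactivated list alone. Among the regions of all genes, 26.2% were in the Taf4-inactivated list alone.

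Genes of the AP-1 family had the highest density of regions of the 6 lists. The 10 AP-1 genes had 29 regions in 230 kb, 12.6 per 100 kb, with 15 shared, 7 in control alone and 7 in the Taf4-inactivated list alone. Fos had 11 regions, 6 shared, 1 in control alone and 4 in the Taf4-inactivated list alone, and the last 4 stood at percentiles 57.2 to 66.5. Batf, on chromosome 12 like Fos, had 7 regions, and Atf3, a stress-induced factor gene, had 6 with 4 shared. Fosl2 had 3, Fosb and Fosl1 had 1 each, and Jun, Junb, Jund and Maff had none. The count of this list thus rested largely on a few genes. The 10 Polycomb genes, whose products silence chromatin, had 21 regions, 5.93 per 100 kb, with 9 shared, 3 in control alone and 9 in the Taf4-inactivated list alone. Near Eed, a PRC2 subunit gene, there were 5 regions, 3 of them in the Taf4-inactivated list alone, and near Ezh2, the methyltransferase of PRC2, 1 was shared and 1 was in the Taf4-inactivated list alone. Over all genes, 31.3% of regions were shared, beside 36.5% for the transcription factors, 42.9% for the stem cell and Wnt genes, 35% for the absorptive, 36.7% for the secretory, 51.7% for the AP-1 and 42.9% for the Polycomb genes. These lists were short and were chosen with earlier results of these data known. Nothing particular to a list, or to a gene in it, is drawn from them.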

How the data were processed

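One deposited peak list per genotype was used, and the genotype in the labels set the group. Reads were mapped by the authors to mm9 with Bowtie 1.0.0, keeping those with a single reported place. They called broad peaks in each library on its own with MACS2 2.1.1, without a model and with a 200 bp extension, after bcl2fastq 2.17.1.14 (versions per the submitters' processing notes). A deeper library can therefore give a longer list. The treatment of duplicate and mitochondrial reads was not given in the sources used here. The deposited score is 10 times the −log10 q, the deposited fold sets a peak against its own library's background, and the −log10 p and −log10 q values are the authors' averages over a peak.

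Positions were converted to 1-based coordinates and placed on the GENCODE vM1 annotation of NCBIM37 (mm9), whose chromosomes held every peak. Shared peaks overlapped by at least 1 bp, strong peaks were the top 10% by fold, and pairs were peaks that overlapped each other best. For relative depth, the background that gave both fold and p was solved for the narrowest 10% of peaks, and the value at percentile 5 was taken. Copies were sought with BLAST 2.17.0 at 90% identity over 90% of a peak. Sequences were read from the NCBIM37 genome with samtools 1.23.1 and pyfaidx 0.9.0.4. Values were computed with scipy 1.17.1, pandas 2.3.3 and numpy 2.4.6 under Python 3.11.15, and plotted with matplotlib 3.10.9. Placement, overlap, merging and motif counts were tested on simulated data with known answers. With 1 library per genotype no p-value was computed.

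Named genes were the 15 with most regions, the 5 with the largest excess in either list (ties by name) and the genes of 6 lists. Named peaks were the 3 shared and 3 unpartnered ones of highest fold per list and the 3 pairs of largest rank shift each way among pairs overlapping by 50%. The members and lists were chosen with earlier results of these data known. The alternatives numbered 12, of which 2, with equal lists of 40000 peaks, were added once the data had been seen. Some of the items these rules pick are not reported here.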

Additional observations from a re-analysis of the deposited data

How the results depend on the processing

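Of 76 values recomputed under the alternatives, 37 stayed within their counting interval or, for counts, within 1.5 times the reported one, 35 did not, and 4 changed sign. No paired analysis was possible because each genotype had 1 library. Counting only gene 5 prime ends as starts, requiring the midpoint to lie outside protein-coding genes alone, or requiring the whole peak outside genes moved none of these values beyond that, though the first took Prex1 from 21 to 5 regions.

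A floor of 2 on −log10 q in both lists left 9416 control and 9820 Taf4-inactivated peaks, shared in 49.1% and 47.3%, a difference of 1.82 points, with median widths of 503.5 and 441 bp and at most 15 regions at one gene. A floor of 5 left 1190 and 3331 peaks, shared in 81.1% and 29.0%, a difference of 52.1 points, with median widths of 689 and 550 bp, 139 bp apart, and at most 9 regions at one gene. With that floor on the tested list only, 97.8% and 82.8% overlapped any peak of the other one, a difference of 14.99 points. At 20 to 50 kb there were 9009 and 6978 peaks, and at most 13 regions at one gene, Gm10384. An overlap of 50% of both peaks gave 23.99% and 30.7% shared, a difference of -6.69 points, and a gap of 500 bp gave 44.7% and 57.3%. The 40000 peaks of highest fold gave 44.9% and 45.9%, a difference of -0.975 points, and median widths of 475 and 438 bp, 37 bp apart, and the 40000 of highest −log10 p gave 48.2% and 48.0%, a difference of 0.156 points, and median widths of 505.5 and 451 bp. The direction of the sharing difference thus depended on the threshold and on the length of the lists, and the cause was not tested.

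For the 15 genes with most regions, 60 recomputed counts stayed within 1.5 times the reported one and 45 did not. The median width stayed higher in control under the 8 alternatives that change which peaks are kept. Read counts were not analysed here, so peaks missed for lack of depth cannot be told apart from closed chromatin.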
